A study of Mus musculus with 59 samples.

Results

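Potassium channels set how quickly a neuron repolarizes and how often it can fire, and 32 genes of this class were followed here across 5 brain regions of mice that carry an expanded *Atxn1* allele. The 32 members were taken by symbol from the 54232 genes of each library: pore subunits of the Kv1, Kv2, Kv3, Kv4 and Kv7 families, the electrically silent Kv subunits, the calcium-activated SK and BK channels, the cytoplasmic Kv beta subunits and the Kv channel interacting proteins (KChIPs). The Kcnh family is not among them. Bulk polyA RNA was sequenced from cerebellum, brainstem, cortex, striatum and hippocampus of 12 mice labelled C57BL/6 (C57BL/6J in the study's methods) at 10 weeks of age, which gave 59 libraries. The mice were of 3 genotypes with 4 mice each. WT mice carried no expanded allele, knock-in mice of genotype *Atxn1* 154Q/2Q are called 154Q here, and those with *Atxn1* 154Q[V591A;S602D]/2Q are called 154Q-AXH. Each mouse gave 1 library per region and is named by genotype and number, as in WT-220. The brainstem had 3 libraries of 154Q-AXH.

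The 154Q allele places a repeat of 154 glutamines in the mouse gene, under its own promoter, and is the allele of a model of spinocerebellar ataxia type 1 (SCA1). In 154Q-AXH the same allele also carries V591A and S602D, changes in the AXH domain that remove the binding of ATXN1 to the transcriptional repressor Capicua (CIC). Both mutants kept 1 unexpanded 2Q allele, and the labels give no sex. Neither the repeat nor the V591A and S602D changes can be read from these counts, so the genotypes rest on the labels. The study set the genotypes side by side to separate what depends on CIC from what does not. Within a region each library is a mouse, so the p-values of the genotype tests measure the spread between mice. Both mutants were compared with the same WT mice. Tests between regions took several libraries from each mouse.

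Kv channels open on depolarization. Kv1 channels hold back firing along axons and near the site where spikes begin, Kv3 channels end spikes fast enough for high firing rates, Kv4 channels with their KChIP partners carry the A-type current of dendrites, and Kv7 channels carry the M-current. SK and BK channels open on calcium and shape the afterhyperpolarization. Purkinje cells of the cerebellum, the neurons best known for their loss in SCA1, fire without synaptic drive and depend on several of these channels.

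The libraries held 28.1 to 112.3 M counted read pairs (M, mega), with medians of 85.4 M in cerebellum, 89.6 M in brainstem, 83.1 M in hippocampus, 35.3 M in striatum and 39.7 M in cortex. All 32 members passed the filter on low counts in all 5 regions. Each region expressed the markers of its own neurons, and 3 libraries stood apart. The hippocampal library of mouse 154Q-76 held 416 CPM (counts scaled to a common library total) of the 10 brainstem neuron markers, against 1.84 to 3.47 CPM in WT hippocampus. In the striatal library of mouse WT-220 the 6 spiny projection neuron markers summed to 4510.0 CPM and the 6 cortical projection neuron markers to 274, against 1390.0 to 1858 and 692 to 755 in the other WT mice. The striatal library of mouse 154Q-AXH-217 leaned the same way, with 2775 and 240.4 CPM. In the other WT mice the striatal sum of cortical markers was near the 767 to 944 CPM of WT cortex, each region scaled on its own. Calls of members in hippocampus and striatum that rest on these libraries are given with and without them.

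The members differed between regions in WT mice. All 32 passed the test of region (edgeR quasi-likelihood F test with Benjamini-Hochberg adjustment over all genes, 20 WT libraries), where 91.6% of all genes did, so the test itself does not set them apart. It had no term for mouse, although each mouse gave every region. With mouse as a replicate block all 32 passed again. Pairs of regions, here and below, were tested only without the block, so their p-values leave the pairing out. Levels below are RPKM, which is CPM divided by exon length in kilobases, as mean ± SD of 4 WT mice, a scale on which genes can be compared. Among the Kv3 subunits *Kcnc1*, a subunit of fast-spiking neurons, was highest in cerebellum at 66.8 ± 4.70 RPKM, followed by brainstem at 35.2 ± 0.586, cortex at 27.8 ± 1.73, striatum at 25.5 ± 6.08 and hippocampus at 18.9 ± 2.40. Its levels in striatum and cortex did not differ beyond their spread (adjusted p = 0.559), nor did they without the striatal library of WT-220, where striatum stood at 28.5 ± 2.23 RPKM in 3 mice (adjusted p = 0.937). The striatal libraries of these 3 mice held cortical projection neuron markers near the level of WT cortex. Striatal levels without WT-220, here and below, rest on them. The axonal Kv1 subunits *Kcna1* and *Kcna2* were highest in brainstem, at 52.99 ± 4.24 and 56.7 ± 3.19 RPKM.

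Between the regions with the highest and the lowest mean, the silent subunit *Kcnv1* spanned 1017-fold, the KChIP *Kcnip2* 127-fold, the silent subunit *Kcng1* 123-fold, *Kcnq5* 49.1-fold, *Kcna5* 27.6-fold and the silent subunit *Kcng4* 27.5-fold. Without the striatal library of WT-220 the spans of *Kcnip2* and *Kcna5*, which were highest in striatum, were 113-fold and 17.9-fold. Silent subunits form no channel alone and modify Kv2 channels. *Kcng4* averaged 43.2 ± 2.77 RPKM in cerebellum and 1.57 ± 0.0866 in hippocampus. *Kcng1* averaged 0.0573 ± 0.0320 in cerebellum and 7.03 ± 0.885 in cortex, and *Kcnv1* 0.0284 ± 0.00341 and 28.8 ± 3.61, the cerebellar values resting on 11 to 28 and 9 to 12 counts per library. *Kcnb2*, the Kv2 pore subunit among the members, was lowest in cerebellum at 0.541 ± 0.0751 RPKM and reached 2.14 ± 0.383 in hippocampus, where the difference from brainstem (adjusted p = 0.435) or cortex (adjusted p = 0.796) did not pass the test.

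Of the KChIPs, *Kcnip2* spanned the widest range, from 0.495 ± 0.0389 RPKM in cerebellum to 63.05 ± 15.9 in striatum and 52.8 ± 5.29 in hippocampus, a pair that did not differ beyond its spread (adjusted p = 0.113). Without WT-220 the striatal mean of *Kcnip2* was 55.6 ± 3.82 RPKM in 3 mice (adjusted p = 0.586 against hippocampus). *Kcnab2*, a cytoplasmic Kv beta subunit, had the highest level of all members in hippocampus, at 128 ± 12.9 RPKM, and stood at 26.9 ± 1.70 in cerebellum. The SK channel gene *Kcnn2* was the flattest, with 5.27 ± 0.533 RPKM in hippocampus and 3.71 ± 0.624 in cerebellum.

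**Figure D1:**
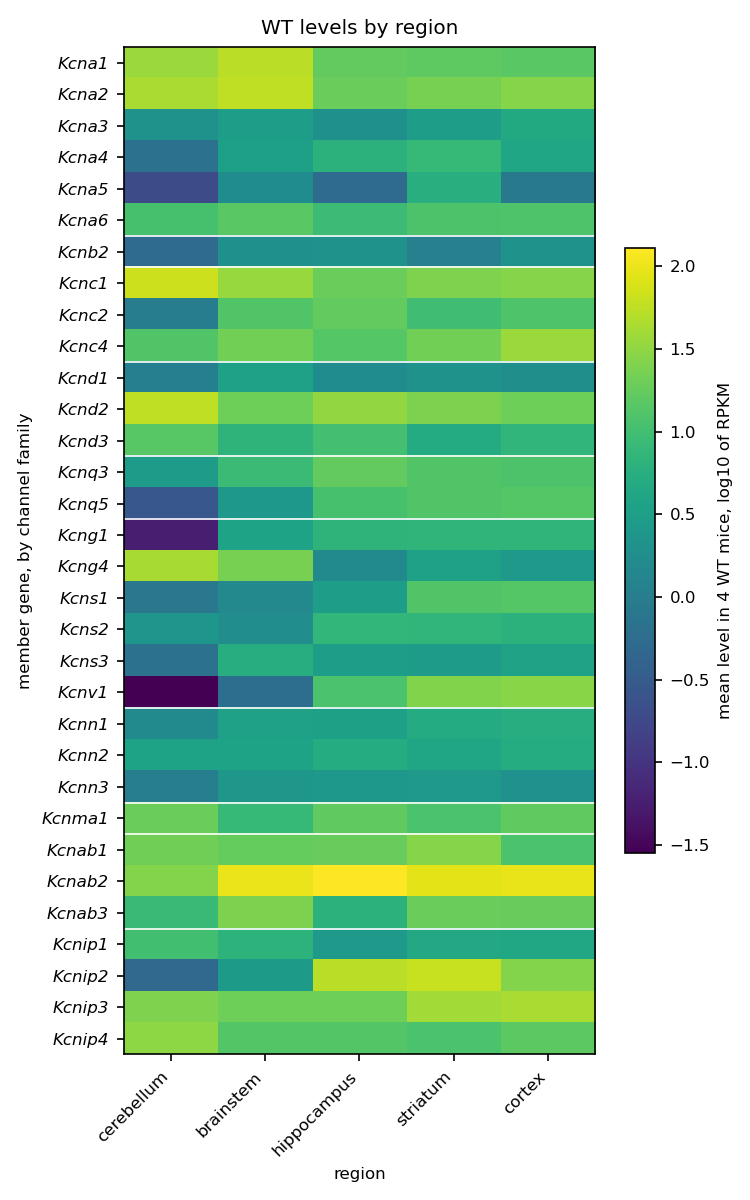
Levels of the 32 members in WT mice, drawn as colour for the log10 of the mean RPKM over 4 mice, with genes as rows grouped by family and the 5 regions as columns. *Kcnv1*, *Kcng1*, *Kcna5*, *Kcnq5* and *Kcnip2* are the 5 members under 0.5 RPKM in cerebellum, and the highest value of all is that of *Kcnab2* in hippocampus.

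Against WT, most members that changed in 154Q were lower. A gene was called where its adjusted p was under 0.05 in the edgeR quasi-likelihood test of the region, adjusted over all genes tested. In cerebellum 1 member rose and 7 fell, 25% of the 32, while 5.22% of all genes were called, 2.1% raised and 3.12% lowered. In brainstem 2 fell, where 0.538% of all genes were called and 0.4% were lowered. In hippocampus 2 rose and 3 fell, beside 2.52% raised and 3.39% lowered of all genes, 5.91% in all. In striatum 2 fell, beside 3.77% lowered and 5.69% called of all genes. In cortex 11 fell and none rose, 34.4% of the members, against 11.1% called and 6.71% lowered of all genes. The members, and the lists read further on, were chosen with earlier results of these data known. Their shares beside the background, here and below, are therefore descriptions and no independent tests. With all libraries the members' share lay above the background in cerebellum, brainstem, hippocampus and cortex, and near it in striatum, where 2 of 32 is 6.25%. Single libraries turned this in hippocampus and striatum. In hippocampus 1 member was called without WT-70 (3.98% of all genes), 154Q-69 (3.72%) or 154Q-71 (4.39%), and in striatum 5 without WT-220 (5.79%). The median log2 fold change of the 32 was -0.07 in cerebellum, -0.06 in brainstem, -0.02 in hippocampus, -0.15 in striatum and -0.18 in cortex, while the median over all genes tested lay between -0.01 and 0.02.

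In 154Q-AXH against WT fewer members were called than in 154Q with all libraries in the fit. In cerebellum 1 rose and 4 fell, where 2.21% of all genes were called, 1.08% raised and 1.13% lowered. In hippocampus 1 rose, beside 0.629% raised and 1.3% called of all genes. In striatum 1 fell, beside 1.08% lowered and 1.35% called, and in cortex 7 fell, beside 4.76% lowered and 7.15% called. None was called in brainstem, where 0.0138% of all genes were. There 3 members (9.38%) had an unadjusted p under 0.05, as had 6.73% of all genes, and DESeq2 called 1 member and 0.203% of all genes. The order of the mutants turned in striatum without WT-220, with 7 members called in 154Q-AXH and 5 in 154Q. In cerebellum, hippocampus and cortex it also turned with only the 2 WT mice whose numbers lie in the mutant's own series. With this split, described further on, 154Q-AXH and 154Q gave 7 and 6 members in cerebellum (11.7% and 1.76% of all genes). They gave 3 and 0 in hippocampus (1.51% and 0.334%) and 9 and 3 in cortex (5.27% and 1.73%). In striatum the order did not turn, with 0 and 8 (0% and 5.99%), and in brainstem both gave 0 (0.0424% and 0.0182%). Fewer calls in 154Q-AXH than in 154Q do not show that the mutants differ, and the direct comparison of the mutants is given further on.

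The calls in 154Q are given next by role, pooled over the 5 regions, where 2.16% of all tests of all genes were raised and 3.37% lowered. The regions come from the same mice, and families were not tested against each other. The 4 KChIPs gave 7 lowered calls in 20 tests of 154Q against WT (35%), the 6 silent subunits 5 lowered calls in 30 tests (16.7%), and the 3 Kv3 subunits 3 lowered calls in 15 tests (20%), all of them *Kcnc1*. The BK gene *Kcnma1* fell in 2 of 5 regions. The 6 Kv1 subunits gave 1 raised and 3 lowered calls in 30 tests, the 3 Kv beta subunits 3 lowered calls in 15, the 3 SK channels 1 raised and 1 lowered call in 15, and the 2 Kv7 subunits 1 lowered call in 10. The 3 Kv4 pore subunits, which the KChIPs bind, gave no call in 15 tests.

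**Figure D2:**
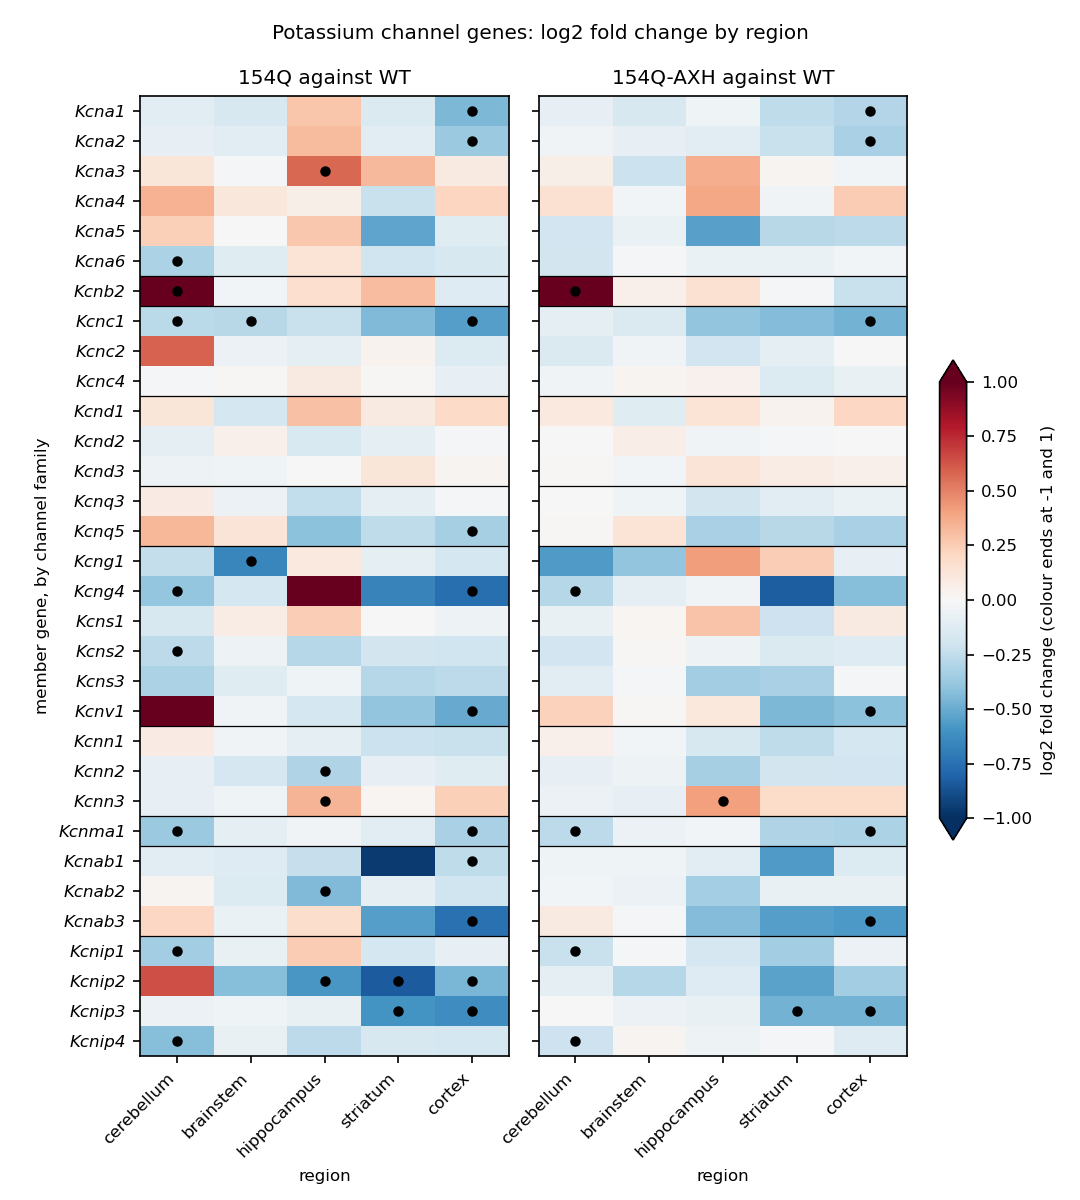
Log2 fold change against WT of the 32 members (rows, grouped by family) in the 5 regions for 154Q and for 154Q-AXH, as colour from -1 to 1, with a black dot where the adjusted p was under 0.05. Dots gather on lowered members in cerebellum and cortex, and *Kcnb2* in cerebellum is the one raised member called in both mutants in that region.

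In cerebellum *Kcnb2* (chr1:15287254-15723750, GRCm38), which forms slow delayed rectifier channels, rose while 7 other members fell. *Kcnb2* stood at 7.02, 9.02, 9.58, and 8.50 CPM in the WT libraries, at 22.1, 16.8, 25.7, and 19.7 CPM in 154Q and at 20.5, 19.6, 19.98, and 14.2 CPM in 154Q-AXH. Every mutant library lay above every WT library. The log2 fold change was 1.30 ± 0.14 (SE), adjusted p = 7.36e-05, in 154Q and 1.12 ± 0.14, adjusted p = 0.00103, in 154Q-AXH. The difference between the mutants was -0.18 ± 0.13, adjusted p = 0.844. In the other regions its log2 fold change in 154Q lay between -0.13 in cortex and 0.31 in striatum and was not called.

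A pair of KChIPs, calcium-binding partners that set the density and kinetics of Kv4 channels, fell in cerebellum. They are *Kcnip4* (chr5:48389502-49524907) and *Kcnip1* (chr11:33629339-33993152). *Kcnip4* stood at 122, 111, 116, and 113 CPM in the WT libraries, at 90.2, 84.6, 82.5, and 87.1 CPM in 154Q and at 98.7, 97.7, 101, and 102 CPM in 154Q-AXH. The 3 genotypes did not overlap, and 154Q-AXH lay between the others. This gave a log2 fold change of -0.42 ± 0.040 (SE), adjusted p = 2.02e-05, in 154Q and -0.21 ± 0.040, adjusted p = 0.0133, in 154Q-AXH. *Kcnip1* stood at 65.2, 64.3, 65.2, and 66.2 CPM in the WT libraries, at 52.05, 53.4, 51.4, and 48.7 CPM in 154Q and at 52.98, 58.1, 53.6, and 58.96 CPM in 154Q-AXH. Both mutants lay below every WT library and overlapped each other. The log2 fold changes were -0.34 ± 0.044, adjusted p = 2.86e-04, and -0.22 ± 0.044, adjusted p = 0.0175. In 154Q-AXH *Kcnip4* passed in 10 of the 12 fits that left out 1 library, and not without 154Q-AXH-209 or 154Q-AXH-207 (adjusted p up to 0.0634), and *Kcnip1* in 9 of the 12, and not without WT-221, 154Q-AXH-217 or 154Q-AXH-207 (adjusted p up to 0.0779).

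The promoter letters of the members bear on the study's subject, since CIC binds DNA at short octamers. RefSeq promoter windows of 300 bases (250 before and 50 after a start, GRCm38.p6) were found for 23 of the 32 members, 38 windows in all. They were searched on both strands for TGAATGAA, TGAATGGA, TCAATGAA and TCAATGGA, and no other motif was searched. A match was in 3 windows, 7.89% of the 38, those of *Kcns3*, *Kcnip1* and *Kcnip4*, against 3.84% of all 32851 windows. By edgeR with all libraries *Kcns3* was called in no region. No match was in the windows of *Kcna6*, *Kcnc1*, *Kcng4* and *Kcnma1*, which also fell in cerebellum, or of *Kcnip2* and *Kcnip3*. *Kcns2*, another member that fell in cerebellum, had no window. The windows of the 2 matched genes that fell in cerebellum are shown 5′ to 3′ on the gene's strand, with the octamer or its reverse complement in capitals. They lie at chr11:33843637-33843936 and chr5:49285610-49285909, both on the minus strand. *Kcnip1* has 3 windows and *Kcnip4* 2, and the match is in 1 of each. Both shown windows lie at starts inside the annotated genes, and the window at the annotated 5′ end of *Kcnip1* holds no match. The match begins just past the start in *Kcnip1* and at -79 from it in *Kcnip4*. A match is a description of letters and says nothing of binding in these mice.
*Kcnip1*: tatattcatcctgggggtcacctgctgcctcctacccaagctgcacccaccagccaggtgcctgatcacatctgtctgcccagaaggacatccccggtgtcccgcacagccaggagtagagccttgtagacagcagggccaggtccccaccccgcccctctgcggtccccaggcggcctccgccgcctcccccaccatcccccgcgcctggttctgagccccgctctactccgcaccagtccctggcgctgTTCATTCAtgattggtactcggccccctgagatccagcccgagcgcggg
*Kcnip4*: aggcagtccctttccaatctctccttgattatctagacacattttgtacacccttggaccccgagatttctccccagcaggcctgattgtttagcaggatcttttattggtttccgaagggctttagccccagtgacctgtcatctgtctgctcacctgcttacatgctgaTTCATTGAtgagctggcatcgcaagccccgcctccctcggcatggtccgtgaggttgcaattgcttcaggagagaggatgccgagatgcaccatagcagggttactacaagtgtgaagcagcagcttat

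The pore subunits *Kcna6* (chr6:126708329-126740674) of the Kv1 family and *Kcnc1* (chr7:46396497-46438704) of the Kv3 family also fell in the cerebellum of 154Q. *Kcna6* stood at 67.9, 66.5, 67.6, and 72.3 CPM in the WT libraries, at 55.02, 59.2, 54.9, and 51.6 CPM in 154Q and at 57.8, 59.6, 61.7, and 62.4 CPM in 154Q-AXH. No 154Q or 154Q-AXH library reached the WT range. On the log2 scale the change against WT was -0.31 ± 0.047 (SE), adjusted p = 0.00102, in 154Q and -0.18 ± 0.047, adjusted p = 0.0571, in 154Q-AXH. An antisense gene covers 39.6% of the exon bases of *Kcna6*, and counts without strand cannot separate the pair. *Kcnc1* stood at 641, 621, 698, and 666 CPM in the WT libraries, at 534, 550.2, 558, and 540.2 CPM in 154Q and at 624, 643, 586, and 605 CPM in 154Q-AXH. All 154Q libraries were below all others, while 154Q-AXH overlapped WT. The log2 fold change was -0.27 ± 0.041 (SE), adjusted p = 0.00129, in 154Q and -0.09 ± 0.041, adjusted p = 0.291, in 154Q-AXH.

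The BK channel gene *Kcnma1* (chr14:23289431-24014491), which in Purkinje cells helps to pace firing, was lower in both mutants. *Kcnma1* stood at 329.9, 316, 353, and 384 CPM in the WT libraries, at 267, 268, 285, and 246 CPM in 154Q and at 299, 283, 274, and 299.6 CPM in 154Q-AXH. Neither mutant reached the WT range. As log2 fold changes these were -0.37 ± 0.059 (SE), adjusted p = 0.00162, and -0.26 ± 0.059, adjusted p = 0.0364. In 154Q-AXH it passed in 4 of the 12 fits that left out 1 library, those without WT-77, WT-70, 154Q-76 or 154Q-75, and reached 0.133 in the others.

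Of the silent subunits, *Kcng4* averaged 171 ± 11.3 CPM in WT, 131 ± 9.64 in 154Q and 140.4 ± 12.3 in 154Q-AXH (SD, n = 4 each), a log2 fold change of -0.39 ± 0.068, adjusted p = 0.00335, in 154Q and -0.28 ± 0.068, adjusted p = 0.0443, in 154Q-AXH. The call in 154Q-AXH was narrow: it passed in 3 of the 12 fits that left out 1 library, those without WT-77, 154Q-69 or 154Q-AXH-218, and reached 0.161 in the others. *Kcns2* had a log2 fold change of -0.26 ± 0.069, adjusted p = 0.0434, in 154Q, and it passed in 4 of the 12 fits that left out 1 library, those without WT-220, WT-70, 154Q-AXH-218 or 154Q-AXH-207, and reached 0.127 in the others.

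The 6 Purkinje cell markers, all of them expressed, summed to 9257 to 10380.0 CPM in WT, 7190.0 to 7836 in 154Q and 7916 to 8510.0 in 154Q-AXH, the 4 granule cell markers to 3476 to 4146 CPM in WT, 3309 to 3472 in 154Q and 3541 to 3834 in 154Q-AXH, and the 5 astrocyte markers to 2527 to 2854 CPM in WT, 2334 to 2470.0 in 154Q and 2493 to 2575 in 154Q-AXH. All 3 sums were below WT without overlap in 154Q, as were the Purkinje sum and that of the parvalbumin interneuron list in 154Q-AXH, of 13 marker lists in all. Of the 4 parvalbumin interneuron markers, 3 were expressed in WT cerebellum and 2 in that of 154Q-AXH. These sums moved with the lowered members, and their part in the members' changes was not tested. In bulk tissue, fewer cells of a type and less RNA per cell cannot be told apart.

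**Figure D3:**
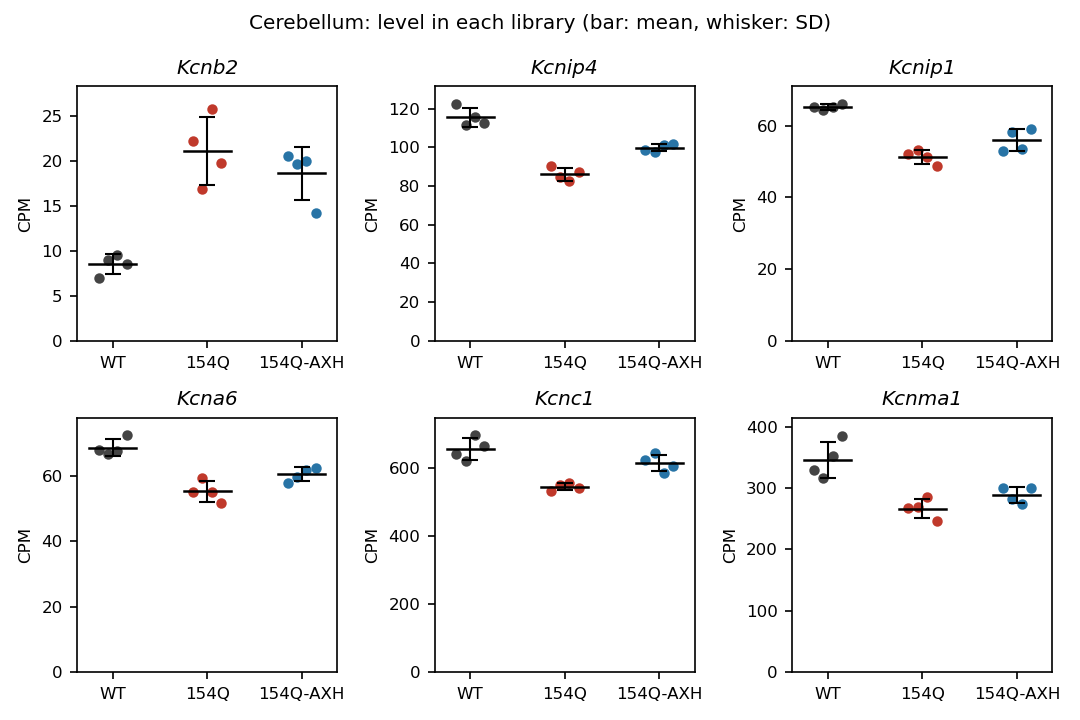
CPM of 6 members in each cerebellar library, 4 mice per genotype, with a bar at the mean and whiskers of 1 SD. *Kcnb2* lies higher in both mutants than in WT, and *Kcnip4* falls into 3 separate ranges, with WT highest and 154Q lowest.

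In brainstem the 2 called members were *Kcng1* (chr2:168260117-168281736), a silent subunit, and *Kcnc1*. *Kcng1* stood at 16.1, 16.1, 18.7, and 17.5 CPM in the WT libraries, at 9.39, 11.3, 11.02, and 11.7 CPM in 154Q and at 12.1, 13.2, and 13.7 CPM in 154Q-AXH. The genotypes did not overlap, with 154Q-AXH between the others. Against WT the log2 fold change was -0.65 ± 0.076 (SE), adjusted p = 0.00288, in 154Q and -0.40 ± 0.082, adjusted p = 0.221, in 154Q-AXH, which had 3 libraries. *Kcnc1* stood at 345, 345, 336, and 340.4 CPM in the WT libraries, at 288, 269.8, 269, and 299 CPM in 154Q and at 294, 323, and 312 CPM in 154Q-AXH. All mutant libraries lay below all WT libraries. This gave a log2 fold change of -0.28 ± 0.041 (SE), adjusted p = 0.0105, in 154Q and -0.14 ± 0.044, adjusted p = 0.568, in 154Q-AXH. With only WT-70 and WT-77 as WT, *Kcng1* had -0.57, adjusted p = 0.183, and *Kcnc1* -0.29, adjusted p = 0.307. The 10 brainstem neuron markers summed to 825 to 910.1 CPM in WT, 685 to 881 in 154Q and 735 to 842 in 154Q-AXH, and none of the 13 marker lists separated 154Q from WT in brainstem.

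In cortex every called member fell. *Kcnc1* had the smallest adjusted p of the members. *Kcnc1* stood at 281, 245, 253, and 269 CPM in the WT libraries, at 172, 181, 170.5, and 191 CPM in 154Q and at 176, 185, 216.1, and 180.1 CPM in 154Q-AXH. Both mutants lay below the WT range, and the log2 fold changes were -0.55 ± 0.066 (SE), adjusted p = 9.42e-05, in 154Q and -0.47 ± 0.066, adjusted p = 4.37e-04, in 154Q-AXH.

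The 2 Kv1 subunits that share axonal channels fell together in cortex. *Kcna1* stood at 75.8, 63.5, 69.9, and 78.1 CPM in the WT libraries, at 52.4, 46.05, 54.4, and 57.6 CPM in 154Q and at 52.6, 59.5, 64.2, and 58.5 CPM in 154Q-AXH. The 154Q libraries lay below WT, and 1 of the 154Q-AXH libraries overlapped it. *Kcna2* stood at 338, 298, 308, and 355 CPM in the WT libraries, at 245, 237, 254, and 266 CPM in 154Q and at 237, 255, 296, and 248 CPM in 154Q-AXH. Neither mutant overlapped WT. The log2 fold changes in 154Q were -0.45 ± 0.079 (SE), adjusted p = 0.00198, for *Kcna1* and -0.37 ± 0.071, adjusted p = 0.00313, for *Kcna2*. In 154Q-AXH they were -0.29 ± 0.079, adjusted p = 0.0371, and -0.32 ± 0.071, adjusted p = 0.0107. In 154Q-AXH *Kcna1* passed in 6 of the 12 fits that left out 1 library, and not without WT-221, WT-220, WT-70, 154Q-AXH-218, 154Q-AXH-209 or 154Q-AXH-207 (adjusted p up to 0.123).

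*Kcnip3* (chr2:127456498-127522094), a KChIP also known as a calcium-dependent DNA-binding repressor, was among the most lowered members in cortex. *Kcnip3* stood at 136, 159, 162, and 156 CPM in the WT libraries, at 87.04, 96.7, 109, and 106 CPM in 154Q and at 122, 123, 99.3, and 96.96 CPM in 154Q-AXH. No mutant library reached the WT range. The log2 fold changes were -0.62 ± 0.088 (SE), adjusted p = 3.82e-04, and -0.48 ± 0.088, adjusted p = 0.00382. *Kcnip2* stood at 111, 89.8, 88.9, and 85.95 CPM in the WT libraries, at 68.05, 64.7, 70.1, and 70.5 CPM in 154Q and at 63.04, 62.6, 76.2, and 92.2 CPM in 154Q-AXH. For *Kcnip2* the 154Q libraries lay below WT, while mouse 154Q-AXH-218 fell within it. Its log2 fold changes were -0.46 ± 0.11, adjusted p = 0.0129, in 154Q and -0.35 ± 0.11, adjusted p = 0.0621, in 154Q-AXH.

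The BK gene fell in both mutants in cortex. *Kcnma1* stood at 263, 289, 273, and 289.7 CPM in the WT libraries, at 210.5, 239.5, 217.4, and 225.1 CPM in 154Q and at 219.3, 231, 227.7, and 216.2 CPM in 154Q-AXH. Neither mutant overlapped WT. As log2 fold changes these were -0.32 ± 0.049 (SE), adjusted p = 6.93e-04, in 154Q and -0.32 ± 0.049, adjusted p = 0.00101, in 154Q-AXH, and the difference between the mutants was 0.00 ± 0.049, adjusted p = 0.996.

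A further 5 members fell in cortex in 154Q. Of the Kv beta subunits, which attach to Kv1 channels and alter their inactivation and traffic, *Kcnab3* averaged 52.2 ± 4.73 CPM in WT, 31.1 ± 8.28 in 154Q and 35.02 ± 7.22 in 154Q-AXH (log2 fold change -0.74 ± 0.16, adjusted p = 0.00745, in 154Q). *Kcnab1* stood at 96.8, 93.1, 109, and 107 CPM in WT and 74.5, 85.8, 91.2, and 88.7 in 154Q, with the highest 154Q library just below the lowest WT one (-0.25 ± 0.070, adjusted p = 0.0296). The silent subunits *Kcnv1* and *Kcng4* had log2 fold changes of -0.50 ± 0.11, adjusted p = 0.0102, and -0.76 ± 0.22, adjusted p = 0.0410. *Kcnq5*, a subunit of the M-current, had -0.33 ± 0.095, adjusted p = 0.0361, with groups that overlapped.

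In 154Q, 3 of these calls depended on single libraries. *Kcng4* passed in 5 of the 12 fits that left out 1 library, those without WT-220, 154Q-76, 154Q-AXH-217, 154Q-AXH-209 or 154Q-AXH-207, and reached 0.120 in the others. *Kcnq5* passed in 6 of the 12 fits that left out 1 library, and not without WT-221, WT-220, WT-70, 154Q-75, 154Q-71 or 154Q-69 (adjusted p up to 0.110). *Kcnab1* passed in 8 of the 12 fits that left out 1 library, and not without WT-221, WT-220, 154Q-71 or 154Q-69 (adjusted p up to 0.0975). In 154Q-AXH, *Kcnv1* (-0.41 ± 0.11, adjusted p = 0.0407) and *Kcnab3* (-0.57 ± 0.16, adjusted p = 0.0407) each passed in 6 of the 12 fits that left out 1 library. Neither passed without WT-221, WT-220, WT-70, 154Q-AXH-218, 154Q-AXH-209 or 154Q-AXH-207, where adjusted p reached 0.131 for *Kcnv1* and 0.130 for *Kcnab3*.

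Marker sums moved with the cortical members. The 6 cortical projection neuron markers summed to 767 to 944 CPM in WT, 604 to 685 in 154Q and 601 to 664 in 154Q-AXH, the 4 parvalbumin interneuron markers to 151 to 172 CPM in WT, 93.9 to 135 in 154Q and 116 to 160.0 in 154Q-AXH, the 3 GABA neuron markers to 581 to 643 CPM in WT, 458 to 500.5 in 154Q and 498 to 518 in 154Q-AXH, and the 5 astrocyte markers to 1149 to 1269 CPM in WT, 922 to 1058 in 154Q and 928 to 1140.0 in 154Q-AXH. All markers of these lists were expressed in WT cortex, and their part in the members' changes was not tested. The labels and the deposited file names disagree for the cortical libraries of mouse 154Q-AXH-207 and mouse 154Q-76. With their labels exchanged 15 members were called in 154Q (12.5% of all genes) and 7 in 154Q-AXH (6.84%), and with both left out 13 (9.8%) and 5 (4.25%).

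In striatum the 2 called members were KChIPs. *Kcnip3* stood at 116, 142, 144, and 154 CPM in the WT libraries, at 88.00, 92.1, 95.3, and 92.6 CPM in 154Q and at 108, 103, 94.2, and 95.96 CPM in 154Q-AXH. No mutant library reached the WT range. The log2 fold changes were -0.60 ± 0.081 (SE), adjusted p = 0.00155, and -0.47 ± 0.081, adjusted p = 0.0133. In 154Q-AXH *Kcnip3* passed in 11 of the 12 fits that left out 1 library, and not without 154Q-AXH-209 (adjusted p up to 0.0505). *Kcnip2* stood at 200.8, 198, 293, and 178 CPM in the WT libraries, at 136, 114, 116, and 122 CPM in 154Q and at 108, 151, 208.0, and 133 CPM in 154Q-AXH. The 154Q libraries lay below WT, and mouse WT-220 was the highest of all. As log2 fold changes these were -0.83 ± 0.19, adjusted p = 0.0232, and -0.53 ± 0.19, adjusted p = 0.226. In 154Q, *Kcnip2* passed in 8 of the 12 fits that left out 1 library, and not without any 1 of the 4 154Q mice (adjusted p up to 0.0713).

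In striatum WT-220 lay far from the other WT mice in *Kcnab1* and *Kcnc1*. *Kcnab1* stood at 207.1, 175, 379, and 184 CPM in WT, with WT-220 the third value, at 126, 98.8, 127, and 135 in 154Q and at 119.6, 167, 256, and 96.4 in 154Q-AXH, with 154Q-AXH-217 the third value. *Kcnc1* stood at 247, 292, 156, and 266 CPM in WT and 186, 186, 163, and 171 in 154Q. WT-220 was the highest of these libraries in *Kcnab1* and the lowest in *Kcnc1*.

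A fit without WT-220 and 154Q-AXH-217, chosen after seeing the data, called 11 members in 154Q (11.8% of all genes) and 8 in 154Q-AXH (5.06%), all lower. The 11 were the same 11 genes that were called in cortex, and the same mice gave both regions. The WT striatal libraries in this fit held 692 to 755 CPM of the cortical projection neuron markers, near the 767 to 944 CPM of WT cortex, each region scaled on its own. *Kcnc1* then had a log2 fold change of -0.59, adjusted p = 3.09e-04, *Kcnv1* of -0.57, adjusted p = 1.31e-04, and *Kcnab1* of -0.62, adjusted p = 0.0189. *Kcnip2* moved from -0.83 to -0.64, adjusted p = 0.00121, and *Kcnip3* from -0.60 to -0.56, adjusted p = 7.70e-04. Without WT-220 alone 5 members were called in 154Q (5.79% of all genes) and 7 in 154Q-AXH (3.27%). In the remaining libraries the spiny neuron markers summed to 1390.0 to 1858 CPM in WT and 555 to 978 in 154Q, and the cortical markers to 692 to 755 and 458 to 556, so both sums still moved with genotype. With all striatal libraries 7 of the 13 marker lists were below WT without overlap in 154Q, among them astrocytes (965 to 1080.0 CPM in WT and 813 to 878 in 154Q), oligodendrocytes (9212 to 15300.0 and 6643 to 8028) and parvalbumin interneurons (227.1 to 439.9 and 169.7 to 219.8). Their part in the members' changes was not tested.

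**Figure D4:**
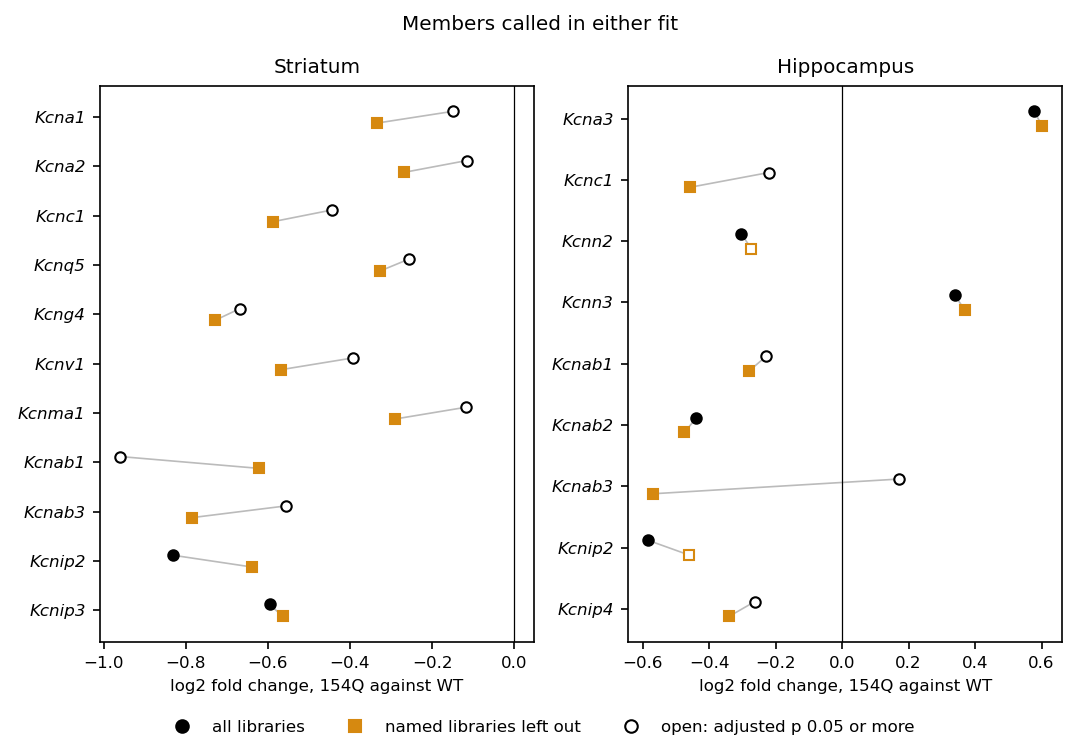
Log2 fold change of each member called in either fit, 154Q against WT, with all libraries (black circles) and with the libraries that stood apart left out (orange squares), for striatum and hippocampus, with open symbols where the adjusted p was 0.05 or more. More striatal members have filled squares (11) than filled circles (2), and in hippocampus *Kcnab3* moves from above 0 to below it.

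In hippocampus the Kv1 subunit *Kcna3*, which is also known from microglia, averaged 3.69 ± 0.750 CPM in WT, 5.46 ± 0.368 in 154Q and 4.70 ± 0.603 in 154Q-AXH and rose in 154Q (0.58 ± 0.15, adjusted p = 0.0378). The SK channels, which hold back repetitive firing, split: *Kcnn3* rose in 154Q (0.34 ± 0.080, adjusted p = 0.0279) and in 154Q-AXH (0.41 ± 0.080, adjusted p = 0.0291), and *Kcnn2* fell in 154Q (-0.30 ± 0.081, adjusted p = 0.0471). *Kcnab2* fell from 727 ± 68.4 CPM in WT to 536 ± 43.1 in 154Q (-0.44 ± 0.080, adjusted p = 0.00848). The 4 microglial markers summed to 192 to 205.7 CPM in WT and 163 to 200.4 in 154Q.

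*Kcnip2* fell in the hippocampus of 154Q with an adjusted p close to the threshold. *Kcnip2* stood at 165, 199.9, 179.7, and 204.9 CPM in the WT libraries, at 130.2, 137, 144, and 88.9 CPM in 154Q and at 138, 170.5, 158, and 217.9 CPM in 154Q-AXH. The 154Q libraries lay below WT, with 154Q-76 the lowest, and 154Q-AXH overlapped both. The log2 fold change was -0.58 ± 0.16 (SE), adjusted p = 0.0472, in 154Q and -0.13 ± 0.16, adjusted p = 0.745, in 154Q-AXH. *Kcnc1* stood at 176, 153, 197, and 200.4 CPM in WT and 133, 129.5, 138, and 224.1 in 154Q, with 154Q-76 the last value and the only one above the WT minimum. That library, with its brainstem markers, also held 39.1 CPM of *Kcng4*, a gene of the brainstem and cerebellum. It was kept in the values above because its label places it in the group.

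Without it 7 members were called in 154Q (6.06% of all genes) and 5 in 154Q-AXH (3.61%). *Kcnc1* then passed with a log2 fold change of -0.46, adjusted p = 0.0130, as did *Kcnip4* at -0.34, adjusted p = 0.0189, *Kcnab1* at -0.28, adjusted p = 0.0298, and *Kcnab3* at -0.57, adjusted p = 0.0491, which had been 0.17 with all libraries. *Kcnip2* no longer passed (-0.46, adjusted p = 0.0566), nor did *Kcnn2* (-0.27, adjusted p = 0.0783). The calls of *Kcna3*, *Kcnn3* and *Kcnab2* in 154Q held. In 154Q, *Kcna3* passed in 4 of the 12 fits that left out 1 library, those without WT-220, 154Q-76, 154Q-AXH-218 or 154Q-AXH-209, *Kcnn2* and *Kcnip2* in 3 each, those without WT-77, 154Q-AXH-218 or 154Q-AXH-209 and without 154Q-75, 154Q-AXH-218 or 154Q-AXH-207, and *Kcnn3* in 9, all but those without WT-70, 154Q-71 or 154Q-69. The 6 hippocampal neuron markers summed to 449.6 to 598 CPM in WT, 252 to 358 in 154Q and 376 to 644 in 154Q-AXH, with 154Q-76 at the 154Q minimum. The 3 GABA neuron markers summed to 579 to 602 CPM in WT, 449 to 557 in 154Q and 424 to 504 in 154Q-AXH, and the 6 cortical projection neuron markers to 452 to 604 CPM in WT, 402 to 416 in 154Q and 420.5 to 442 in 154Q-AXH. All 3 sums were below WT without overlap in 154Q, and their part in the members' changes was not tested.

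**Figure D5:**
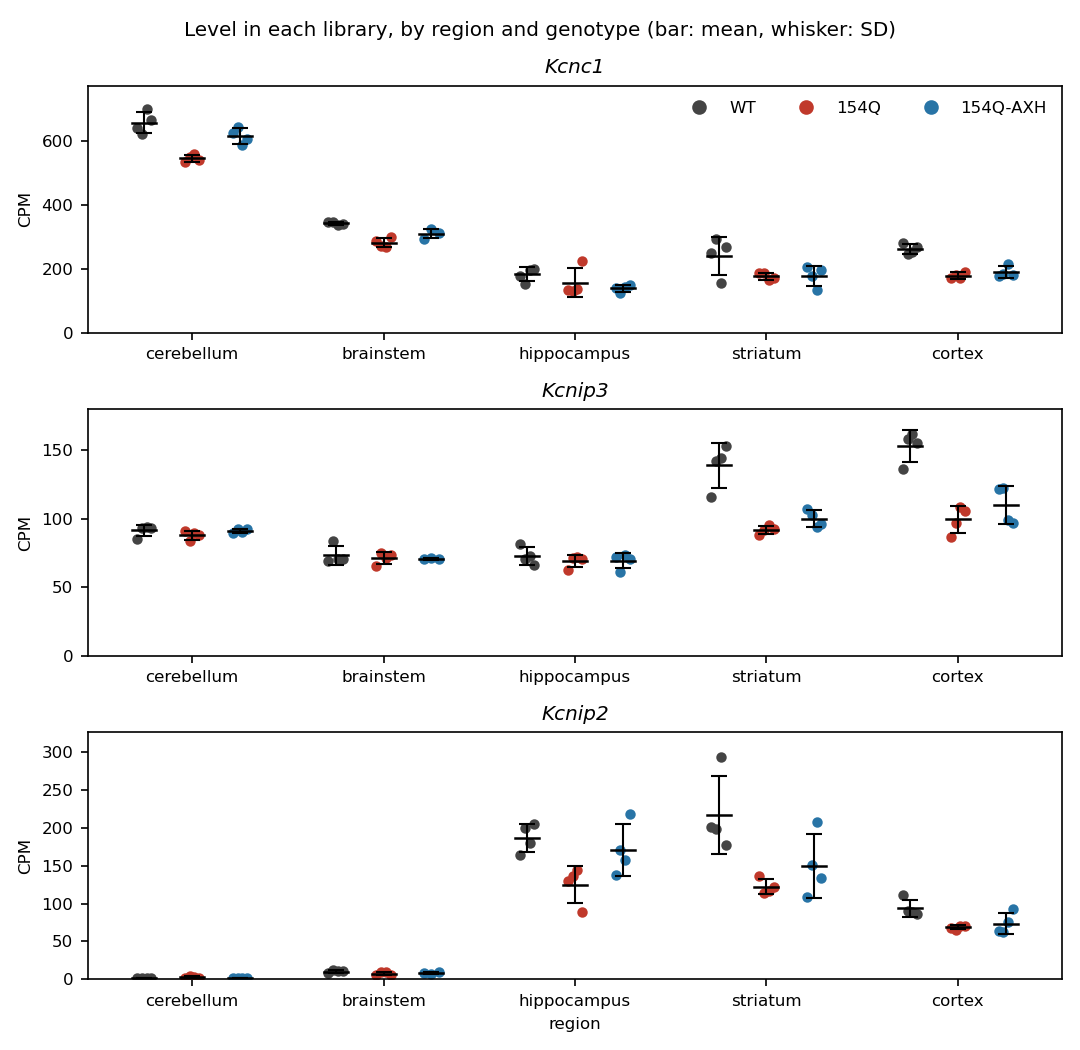
CPM of *Kcnc1*, *Kcnip3* and *Kcnip2* in each library of the 5 regions, by genotype, with a bar at the mean and whiskers of 1 SD. *Kcnc1* is lower in 154Q than in WT in cerebellum, brainstem and cortex, with mouse 154Q-76 high in hippocampus and mouse WT-220 low in striatum, while *Kcnip3* differs in striatum and cortex.

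Whether a member's change in 154Q differed between regions was tested with the 4 interaction terms of genotype and region over the 40 WT and 154Q libraries. Of the 32 members 5 passed, or 15.6%, where 5.71% of all genes did. *Kcnip3* (adjusted p = 1.35e-04) had log2 fold changes of -0.60 in striatum and -0.62 in cortex against -0.06, -0.04 and -0.08 in cerebellum, brainstem and hippocampus. *Kcnb2* (adjusted p = 1.43e-04) was called, as raised, in cerebellum alone among the 5 regions. The other 3 were *Kcna6* (adjusted p = 0.0156), *Kcnab1* (adjusted p = 0.0153) and *Kcnip2* (adjusted p = 0.0430).

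With mouse as a replicate block, since each mouse gave all its regions, the same 5 passed (6.64% of all genes), with adjusted p of 7.68e-05 for *Kcnip3* and 4.82e-04 for *Kcnb2*. *Kcnb2* and *Kcnip3* passed in each of 10 fits that left out a mouse or a library that stood apart, while *Kcna6* passed in 4 of these 10, *Kcnab1* in 7 and *Kcnip2* in 3. Without the hippocampal library of mouse 154Q-76, *Kcna6* reached 0.05003, and without the striatal library of mouse WT-220, *Kcnip2* reached 0.0536. *Kcnc1*, called in 3 regions, gave 0.575, so its change was not shown to differ between regions.

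The 2 mutants were compared directly in each region, and the edgeR quasi-likelihood test called no member in any of the 5. The background was 0.0335% of all genes in cerebellum and 0 in the other regions. At an unadjusted p under 0.05 there were 6 members in cerebellum (18.8%, against 7.6% of all genes), 4 in brainstem (12.5%, against 5.35%), 7 in hippocampus (21.9%, against 11%), 0 in striatum (against 3.26%) and 2 in cortex (6.25%, against 6.67%). The hippocampal count includes 154Q-76, the library with brainstem markers, and was not repeated without it. Without 154Q-76 the edgeR test called no member there at an adjusted p under 0.05, and 0.0184% of all genes. In cerebellum 154Q-AXH was higher than 154Q by 0.21 ± 0.040, adjusted p = 0.104, for *Kcnip4* and by 0.17 ± 0.041, adjusted p = 0.224, for *Kcnc1*, on the log2 scale, in groups that did not overlap. DESeq2 called these 2 members, with 0.21, adjusted p = 5.27e-04, for *Kcnip4* and 0.17, adjusted p = 0.0311, for *Kcnc1*, and called 0.34% of all genes. *Kcnip4* also passed in edgeR without mouse WT-70 (0.21, adjusted p = 0.0445) and with only the mutants in the fit (0.21, adjusted p = 0.0306).

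The 154Q mice run from 154Q-69 to 154Q-76 and the 154Q-AXH mice from 154Q-AXH-207 to 154Q-AXH-218, while WT-70 and WT-77 belong to the lower number series and WT-220 and WT-221 to the higher. What the series stands for is not given in the labels. Against WT-70 and WT-77 alone, *Kcnc1*, *Kcnip2* and *Kcnip3* passed in the cortex of 154Q and the other cortical members did not, nor did any member in hippocampus or brainstem, or *Kcnma1* and *Kcns2* in cerebellum. Calls over all genes fell in the same fits, to 1.73% in cortex, 0.334% in hippocampus, 0.0182% in brainstem and 1.76% in cerebellum. In striatum, where this split leaves out WT-220, 8 members were called (5.99% of all genes). With the series as a covariate *Kcnip2* in striatum had -0.71, adjusted p = 0.197, in 154Q. In that fit the cerebellar difference between the mutants was 0.24, adjusted p = 0.101, for *Kcnip4* and 0.06, adjusted p = 0.617, for *Kcnc1*. In brainstem *Kcng1* differed between the mutants by 0.26 ± 0.083, adjusted p = 0.751.

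In 154Q 11 members were called in no region by edgeR with all libraries. They were *Kcna4*, *Kcna5*, *Kcnc2*, *Kcnc4*, the 3 Kv4 subunits *Kcnd1*, *Kcnd2* and *Kcnd3*, *Kcnq3*, *Kcns1*, *Kcns3* and *Kcnn1*. The closest was *Kcnn1* in cortex, at -0.22 ± 0.071, adjusted p = 0.0537, followed by *Kcns3* in cortex, at -0.26 ± 0.089, adjusted p = 0.0743. DESeq2 called both in cortex, with adjusted p of 0.0314 for *Kcnn1* and 0.0487 for *Kcns3*, among 14 members (7.18% of all genes). In edgeR *Kcnn1* also passed with the labels of the cortical pair exchanged (adjusted p = 0.0162). *Kcns3* did so with that pair left out (adjusted p = 0.0255). *Kcnd2*, a Kv4 subunit of neuronal dendrites, gave -0.15 ± 0.082, adjusted p = 0.318, in hippocampus, its lowest adjusted p. *Kcna5* in striatum (-0.53 ± 0.47, adjusted p = 0.521) and *Kcnc2* in cerebellum (0.59 ± 0.31, adjusted p = 0.349) had larger log2 differences with wide errors. A test that was not passed does not show that these genes were equal in both genotypes.

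The other potassium channel genes and the neighbouring excitability genes were read by list, in the same fits. These fits held all libraries, 154Q-76 in hippocampus and WT-220 and 154Q-AXH-217 in striatum among them. The lists were not read without those libraries. Over inward rectifiers (Kcnj), two-pore channels (Kcnk), accessory subunits, sodium-activated channels, HCN channels and sodium channels, 46 genes were tested in cerebellum, hippocampus, striatum and cortex and 50 in brainstem. In 154Q 1 rose and 3 fell in cerebellum, 2 fell in brainstem, 3 rose and 3 fell in hippocampus, 1 rose and 4 fell in striatum, and 4 rose and 9 fell in cortex, where their median log2 fold change was -0.15 beside -0.18 for the 32 members. Pooled over the 5 regions, where 2.16% of all gene tests were raised and 3.37% lowered, the inward rectifiers gave 7 lowered calls in 66 tests (10.6%) and no raised one. The two-pore channels gave 2 raised (3.77%) and 6 lowered (11.3%) in 53, and the sodium channels 4 raised (6.9%) and 8 lowered (13.8%) in 58. In hippocampus no inward rectifier of 13 was called.

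Among these, *Kcnj9*, a G-protein-gated subunit, fell in cerebellum (-0.24 ± 0.042 (SE), adjusted p = 0.00278), and *Kcnk4*, a mechanically gated leak channel, fell in cortex (-0.72 ± 0.11 (SE), adjusted p = 7.70e-04) and hippocampus (-0.63 ± 0.11 (SE), adjusted p = 0.00689). *Kcnk2*, its close relative, rose in cerebellum (0.47 ± 0.079 (SE), adjusted p = 0.00262) and fell in cortex (-0.33 ± 0.10 (SE), adjusted p = 0.0379). The HCN channels, which carry the depolarizing current that opens on hyperpolarization, gave 3 raised calls in 20 tests, all of them *Hcn3*, in hippocampus (0.54 ± 0.074 (SE), adjusted p = 0.00204), striatum and cortex. The hippocampal calls of *Hcn3* and *Kcnk4* were not repeated without 154Q-76. The sodium channel *Scn3a*, best known from the developing brain, rose in cortex (0.53 ± 0.067 (SE), adjusted p = 1.63e-04). Most calls of its list went the other way, 8 lowered beside 4 raised. *Scn4b* of that list fell in cerebellum, brainstem, striatum and cortex (in cortex -1.555 ± 0.28 (SE), adjusted p = 0.00206). The accessory and sodium-activated lists gave none in 27 and 10 tests. In 154Q-AXH these lists gave no call in cerebellum or brainstem, 2 raised and 2 lowered in hippocampus, 1 lowered in striatum, and 2 raised and 5 lowered in cortex.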

How the data were processed

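RNA was extracted from 5 brain regions of 12 mice, and polyA libraries were sequenced in pairs. The authors trimmed reads with Trimmomatic 0.36 and aligned them with STAR 2.7.2d to GRCm38 with GENCODE annotation, per the processing notes and methods. The deposited files hold raw counts of read pairs per gene. The column counted without regard to strand was used, and 4 summary lines and 1 line for a human gene were left out.

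The libraries of a region went into 1 fit of edgeR 4.0.16 under R 4.3.3, with genes kept by filterByExpr, TMM scaling, 3 genotypes in the quasi-likelihood model, Benjamini-Hochberg adjustment over all genes tested, and a call at an adjusted p under 0.05. Values per library are CPM with TMM scaling. RPKM used summed exon length from GENCODE. Depth was 28.1 to 112.3 M counted pairs. The interaction of genotype and region was fitted over 40 WT and 154Q libraries, with mouse as a replicate block as an alternative, since the same mouse gave its regions. DESeq2 1.42.0, other scalings, filters, covariates and left-out libraries were the alternatives. The scripts were tested on simulated data.

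Any member could be named. Values in every library are given for the 10 members with the lowest adjusted p in 154Q, for members called in 3 or more regions and for those with an interaction. Genes outside the members are named only if called and among the 2 lowest adjusted p of their list. *Scn4b* is an exception, named for its calls in several regions. The members and lists were chosen with earlier results of these data known. The cortical libraries of mouse 154Q-AXH-207 and mouse 154Q-76 kept their labels, although file names give the other mouse. No protein sequences were used here.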

Additional observations from a re-analysis of the deposited data

Results flagged for a closer look

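Of 82 groups of 4 libraries of members tested for a library far from the other 3, 2 had one. Chance alone sets about 1 in 20 such groups apart. In cerebellum *Kcnb2* was lowest in mouse 154Q-AXH-218 at 14.2 CPM, still above the WT range. In cortex *Kcnip2* was highest in mouse WT-70 at 110.7 CPM. The summed brainstem neuron markers of the hippocampal library of mouse 154Q-76, 416.2 CPM, stood apart from the other 154Q mice, whose sums were 4.48 CPM or less.

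The change in 154Q against WT differed between regions for 5 members by the interaction test of edgeR, with adjusted p of 0.0156 for *Kcna6*, 0.000143 for *Kcnb2*, 0.0153 for *Kcnab1*, 0.0430 for *Kcnip2* and 0.000135 for *Kcnip3*. The log2 fold change of *Kcna6* ran from -0.31 in cerebellum to 0.14 in hippocampus, that of *Kcnab1* from -0.96 in striatum to -0.11 in cerebellum, and that of *Kcnip2* from -0.83 in striatum to 0.64 in cerebellum, where its level was lowest. Without WT-220 and 154Q-AXH-217 the striatal values were -0.62 for *Kcnab1*, where WT-220 was the highest library, and -0.64 for *Kcnip2*.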

How the results depend on the processing

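Of the results called with all libraries none changed direction: of their 890 values under other settings, 714 kept their side of the threshold and 176 no longer passed. The 890 include the interaction tests of 5 members, which have no direction that could change. Of the members not called, *Kcnab3* in the hippocampus of 154Q went from 0.17 to -0.57 and was called without 154Q-76, the one such reversal. Of the 28 calls in 154Q, 19 passed in every fit with 1 library left out and 10 in every fit run, and of the 14 in 154Q-AXH, 5 passed in both. With a library left out in turn, the members called in 154Q ranged from 7 to 8 in cerebellum, 2 to 2 in brainstem, 1 to 7 in hippocampus, 1 to 5 in striatum and 8 to 13 in cortex. In 154Q-AXH they ranged from 1 to 6, 0 to 0, 0 to 5, 0 to 7 and 4 to 9, and between the mutants from 0 to 1 in cerebellum and 0 elsewhere. With a mouse left out the interaction count ranged from 3 to 6 and the regional count stayed at 32. With mouse as a replicate block these counts were 5 and 32, so the block changed no call. DESeq2 gave 2 members between the mutants in cerebellum (0 in edgeR), 1 in 154Q-AXH brainstem (0) and 4 in 154Q-AXH hippocampus (1). Of all genes DESeq2 called 0.34%, 0.203% and 2.54% there. With only WT mice of the mutant's own number series, which leaves 2, 154Q gave 0 in brainstem (2), 0 in hippocampus (5), 8 in striatum (2) and 3 in cortex (11), where 0.0182%, 0.334%, 5.99% and 1.73% of all genes were called, and 154Q-AXH 3 in hippocampus (1) and 0 in striatum (1), where 1.51% and 0% were. Calls over all genes thus fell in 154Q in brainstem, hippocampus and cortex in this setting. With the series as covariate 154Q gave 1 in brainstem, 2 in hippocampus, 1 in striatum and 6 in cortex. Of all genes 0.0873%, 3.15%, 1.27% and 4.28% were called there. In that setting 154Q-AXH gave 2 in hippocampus and 4 in cortex (7), beside 0.517% and 3.07% of all genes. With the Xist level as covariate 154Q hippocampus gave 2 (2.68% of all genes). Without a filter 154Q-AXH hippocampus gave 2 (0.658% of all genes). With only 2 genotypes in the fit, 154Q hippocampus gave 1 (4.03% of all genes). There 154Q-AXH gave 3 in cerebellum (5), 3 in hippocampus and 0 in striatum, beside 1.19%, 2.37% and 0.414% of all genes. The mutants differed in 1 member in cerebellum (0.266% of all genes). The cause of these shifts was not tested. Without the striatal libraries WT-220 and 154Q-AXH-217, a choice made after seeing the data as were the interaction and the WT regions without WT-220, the striatum gave 11 and 8 (11.8% and 5.06% of all genes). Low levels, under 0.5 RPKM in WT, limit *Kcnv1*, *Kcng1*, *Kcna5*, *Kcnq5* and *Kcnip2* in cerebellum.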
